A study of Mus musculus with 8 samples.

Results

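The cytosolic ribosomal protein genes were compared between mice with bilateral carotid artery stenosis (BCAS) and sham-operated mice, in cortex from the right hemisphere. They were chosen by symbol, as genes named Rpl or Rps followed by a number, together with Rplp0, Rplp1, Rplp2 and Rpsa, leaving out symbols that contain -ps, used for many pseudogenes, and the ribosomal S6 kinases (Rps6k). A mean of at least 10 counts over the libraries was also required. Of 54752 genes in the count tables, 93 had such a symbol and 87 reached the minimum, with 50 named for the large and 37 for the small subunit. Among the 87, 77 bear the name of a core ribosomal protein (46 large, 31 small), 9 are other copies of a core gene, here called paralogs, and Rps19bp1 encodes a nucleolar protein that binds Rps19 and is no part of the ribosome. GENCODE lists the 77 core genes and 4 of the paralogs, Rpl22l1, Rpl7l1, Rps27l and Rps27rt, as protein coding. The other 5 paralogs, Rpl6l, Rps3a2, Rps3a3, Rpl37rt and Rps4l, are annotated there as processed pseudogenes, the last 2 as transcribed ones, although their symbols lack the -ps mark. The 6 genes below the minimum were Rpl10l, Rps12l1, Rpl39l, Rpl32l, Rpl3l and Rpl36al, and none of them had a mean above 8.38 counts.

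RNA was sequenced from 4 Sham and 4 BCAS mice, all wild-type adult males labelled C57BL/6 (C57BL/6 J in the methods), 3 weeks after surgery and with 1 mouse per library. In BCAS mice a microcoil was placed around each common carotid artery, with the narrower coil on the right, the side that was sampled, and Sham mice had the operation without coils. The tissue was whole cortex, so a change in RNA per cell and a change in the mixture of cells cannot be told apart. The comparison asks which genes respond in the cortex to a lasting reduction in blood flow.

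The cytosolic ribosome joins a large subunit, which forms peptide bonds, with a small subunit, which reads the mRNA. Nearly every ribosomal protein is present once in each ribosome, the exception being the P1 and P2 proteins of the stalk, and surplus protein that is not built into a subunit is degraded. The mRNAs start with a pyrimidine tract, the 5′ terminal oligopyrimidine (TOP) motif, through which mTOR signaling and the Larp1 protein control their translation as a group. An mRNA level therefore does not report how much of the protein is made.

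Promoter sequences from RefSeq (GRCm38.p6) were found for 63 of the 87 genes. They are shown because the genes share features there that the symbols did not choose. Each window below runs 5′ to 3′ from 80 bases before the annotated start to 20 bases from it onward, and capitals mark the longest pyrimidine run that touches the 20 bases on either side of the start, or the first of them where runs tie, as in Rps27l. The genes were picked after their values were seen, the first 4 for a large difference between the groups, Rps27 as the parent of Rps27l, and the last 3 as core genes with little difference.
Rplp0, chr5:115559387-115559486, plus strand: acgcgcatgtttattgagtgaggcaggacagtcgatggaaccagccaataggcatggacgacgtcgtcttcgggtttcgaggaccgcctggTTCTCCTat
Rps12, chr10:23787190-23787289, minus strand: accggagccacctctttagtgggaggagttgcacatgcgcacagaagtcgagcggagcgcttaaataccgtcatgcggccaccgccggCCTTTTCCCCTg
Rps9, chr7:3703961-3704060, plus strand: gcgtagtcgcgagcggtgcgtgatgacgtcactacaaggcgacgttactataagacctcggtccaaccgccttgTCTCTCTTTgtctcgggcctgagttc
Rps27l, chr9:66946006-66946105, plus strand: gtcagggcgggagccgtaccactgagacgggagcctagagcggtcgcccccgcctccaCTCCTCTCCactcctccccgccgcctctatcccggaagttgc
Rps27, chr3:90213629-90213728, minus strand: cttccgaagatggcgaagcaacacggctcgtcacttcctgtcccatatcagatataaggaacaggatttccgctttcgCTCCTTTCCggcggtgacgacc
Rpl38, chr11:114668500-114668599, plus strand: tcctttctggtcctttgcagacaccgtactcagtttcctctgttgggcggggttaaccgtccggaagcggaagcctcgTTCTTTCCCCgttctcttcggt
Rps15a, chr7:118116128-118116227, minus strand: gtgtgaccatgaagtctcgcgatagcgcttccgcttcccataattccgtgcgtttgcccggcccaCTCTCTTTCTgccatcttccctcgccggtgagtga
Rps21, chr2:180257299-180257398, plus strand: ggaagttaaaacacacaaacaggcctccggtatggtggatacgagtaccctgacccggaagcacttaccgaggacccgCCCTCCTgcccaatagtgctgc

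A pyrimidine run of at least 8 bases touched the region within 20 bases of the start in 46.0% of the 63 promoters, against 20.8% of the 27025 promoters in the table. The median run was 7 bases in the ribosomal protein genes and 5 in all promoters. Both strands of each 300-base promoter were searched for 4 short motifs. The ETS-type motif CCGGAAG was in 39.7% of the ribosomal protein promoters and 9.08% of all promoters, and the GC-box motif GGGCGG in 60.3% and 35.6%. The YY1-type motif ATGGCGG was in 15.9% and 4.13%, and the TATA-box motif TATAAA in 11.1% and 14.1%. Matches were present at either end of the range of change, for example CCGGAAG in the windows of Rps27l, Rpl38 and Rps21. The median log2 fold change was 0.43 for the 25 genes with CCGGAAG and 0.42 for the others, and it was 0.45 for the 29 genes with the pyrimidine run and 0.40 for those without.

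The libraries held 16759364 to 21794435 counts on genes, and all 87 genes were among the 17136 with enough counts to be tested. Levels are given as CPM, counts per 1000000 counts of the library, after TMM scaling, whose factors ranged from 0.949 to 1.05. Markers of neurons and of glia were present in every library. The sum over 6 neuronal markers was 8535 to 9980 CPM in Sham and 3336 to 7219 in BCAS, and 5 of the 6 were lower in BCAS. All 8 microglia and macrophage markers were higher, with a sum of 307 to 369 CPM in Sham and 1489 to 5928 in BCAS. Of 6 astrocyte markers, 5 were higher, and so were all 4 markers of proliferating cells, whereas the 5 oligodendrocyte markers did not pass the test (adjusted p = 0.163 to 0.807). Of 5 endothelial markers, 2 were higher, with sums of 187 to 254 CPM in Sham and 230 to 358 in BCAS, and of 4 pericyte and smooth muscle markers, 2 were higher, with sums of 261 to 312 and 308 to 462 CPM. Of 4 erythrocyte markers, 2 were higher, and their sum did not overlap between the groups, at 59.0 to 78.8 CPM in Sham and 93.5 to 122 CPM in BCAS. Of 6 lymphocyte markers and 4 neutrophil and monocyte markers, 2 of each had enough counts to be tested, and these were higher. Both lists had low sums in Sham, and a marker that is rare in Sham can reach the count filter through its BCAS counts alone. The filter thus favored markers that were higher in BCAS, and these calls cannot speak for the untested markers. Markers of the choroid plexus reached 769 CPM in Sham 3, against 13.5 to 69.1 CPM in the other 7 libraries.

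Most ribosomal protein genes were higher in BCAS than in Sham, and none was lower. With edgeR's quasi-likelihood test and a Benjamini-Hochberg adjusted p under 0.05 over all tested genes, 59 of the 87 (67.8%) were higher, against 19.2% of all tested genes. No ribosomal protein gene was lower, against 12.8% of all tested genes, and none was lower at an unadjusted p under 0.05 or by DESeq2. The median log2 fold change was 0.42, with quartiles of 0.29 and 0.56, whereas the median over all tested genes was -0.01. The changes were modest in size, and 82 of 87 had a positive log2 fold change, from -0.16 to 1.10 over the group. At the stricter thresholds of the study, which also ask for a log2 fold change above 1, 2 of the 87 were called higher, Rplp0 and Rps27l, against 11% of all tested genes. This count was 1 with limma-voom, limma-trend or without Sham 1, 0 without BCAS 1, 6 without BCAS 2, 3 without Sham 2 and 4 with library size alone. Shares for abundant and for short genes are given beside these, although most members had 1500 exon bases or more, up to 6270 in Rps15a. The eighth of tested genes with the highest mean level had a median of -0.30 with 10.9% higher, and those with exons under 1500 bases in all had a median of -0.04 with 12.6% higher. The count of 59 depended on the libraries used and was 38 without Sham 1, 38 without Sham 3, 28 without Sham 4, 37 without BCAS 3, 39 without BCAS 4 and 71 without BCAS 2, while no fit called any member lower. Without Sham 4, 2184 of 17682 tested genes were called higher, compared with 3291 of 17136 in the full set. In all, 27 members were called in each of the 8 fits without 1 library.

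**Figure D1:**
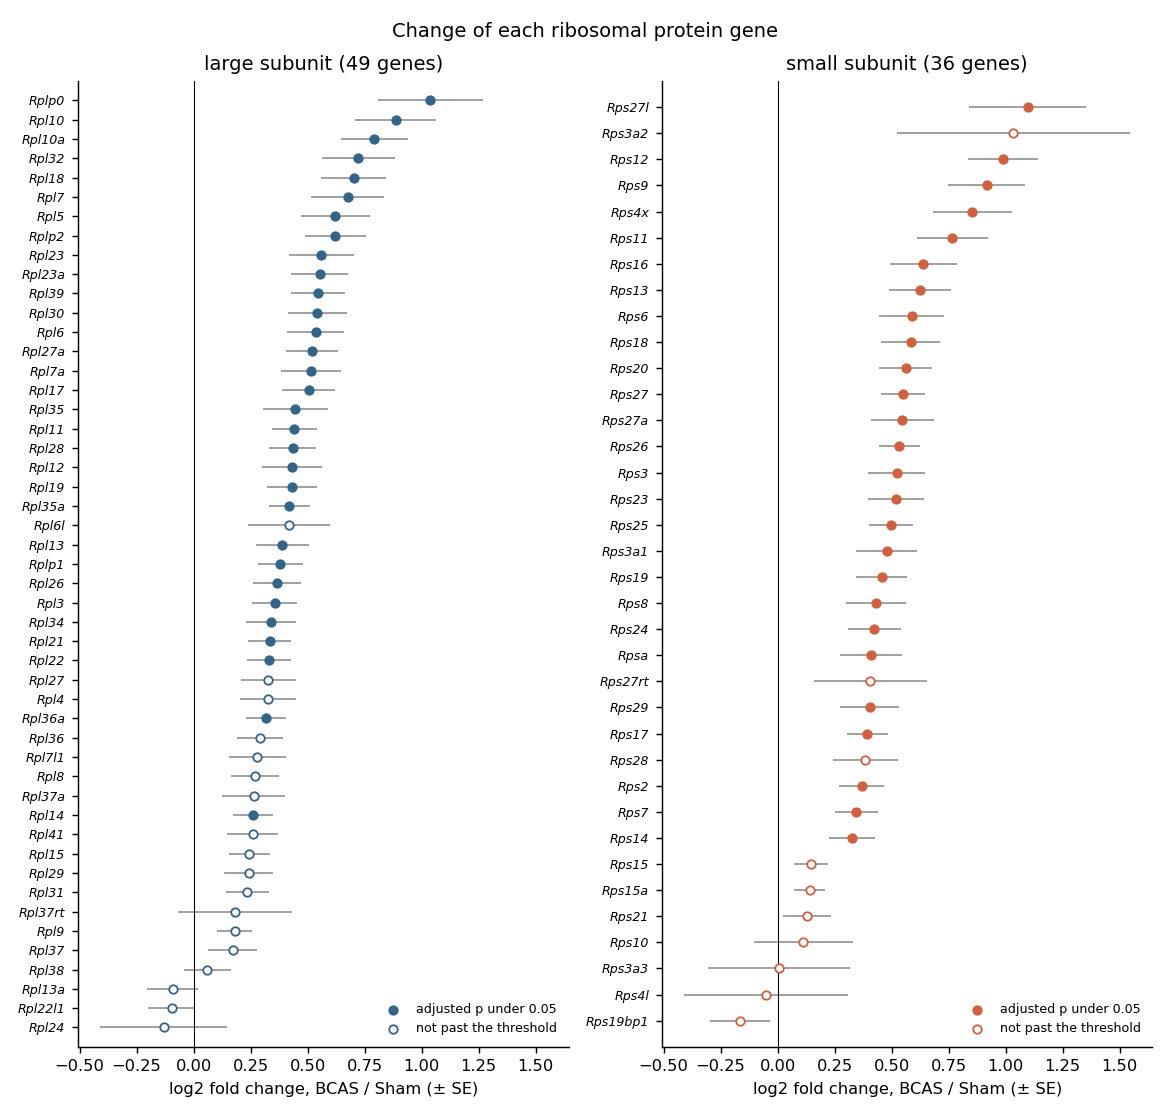
Log2 fold change of BCAS over Sham (x axis) with its standard error for 49 large-subunit and 36 small-subunit genes (2 are not reported here), ranked within each panel; filled points had an adjusted p under 0.05 in edgeR's quasi-likelihood test. All 57 filled points lie to the right of 0, and 5 of the open points lie to its left.

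Summed over the 87 genes, ribosomal protein transcripts took 0.912%, 0.944%, 0.866% and 0.878% of all counts in Sham 1 to 4. The share was 1.63%, 1.08%, 1.30% and 1.35% in BCAS 1 to 4. All 4 BCAS libraries were above all 4 Sham libraries, at 1.34% ± 0.228 (SD, n = 4) against 0.900% ± 0.0351 (SD, n = 4). The same separation was found gene by gene, since all BCAS values exceeded all Sham values for 61 of the 87 genes, against 18.5% of all tested genes. No gene of the 87 had all BCAS values below all Sham values, against 16.3% of all tested genes.

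**Figure D2:**
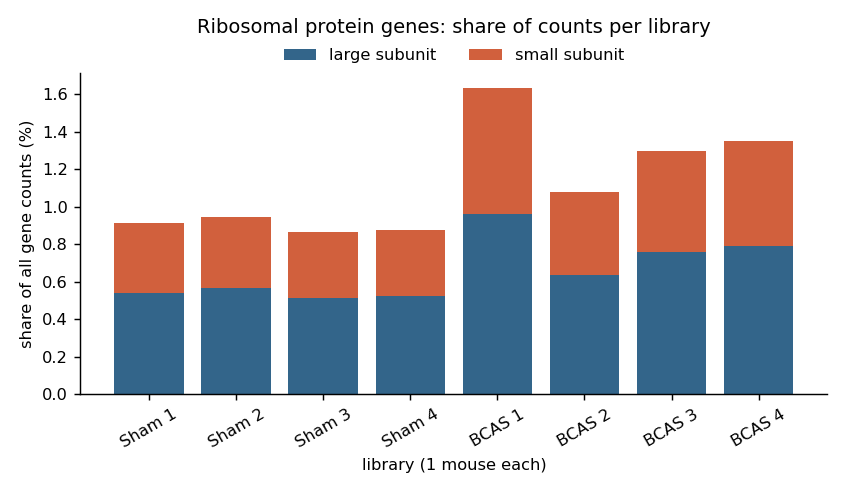
Share of all gene counts (percent, y axis) on large-subunit genes (blue) and small-subunit genes (orange) in each library, stacked, with 1 mouse per bar. The 4 Sham bars end between 0.866% and 0.944%, and the BCAS bars range from 1.08% in BCAS 2 to 1.63% in BCAS 1.

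The BCAS mice differed among themselves. Relative to the Sham mean, the median ribosomal protein gene stood at 0.65, 0.20, 0.40 and 0.45 on the log2 scale in BCAS 1 to 4, and within -0.10 to 0.09 in the Sham libraries. BCAS 1 was the highest and BCAS 2 the lowest BCAS library for 63 of the 87 genes, against 27.4% of all tested genes. The median SD between libraries on the log2 scale was 0.10 in Sham and 0.21 in BCAS, and over all tested genes it was 0.16 and 0.27. BCAS 1 was also the library with the highest sum of microglia and macrophage markers and the lowest sum of neuronal markers within its group, with 5928 and 3336 CPM, and BCAS 2 had the lowest and the highest, with 1489 and 7219 CPM. The part of these or of the other marked cell types in the change of the ribosomal protein genes was not tested.

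**Figure D3:**
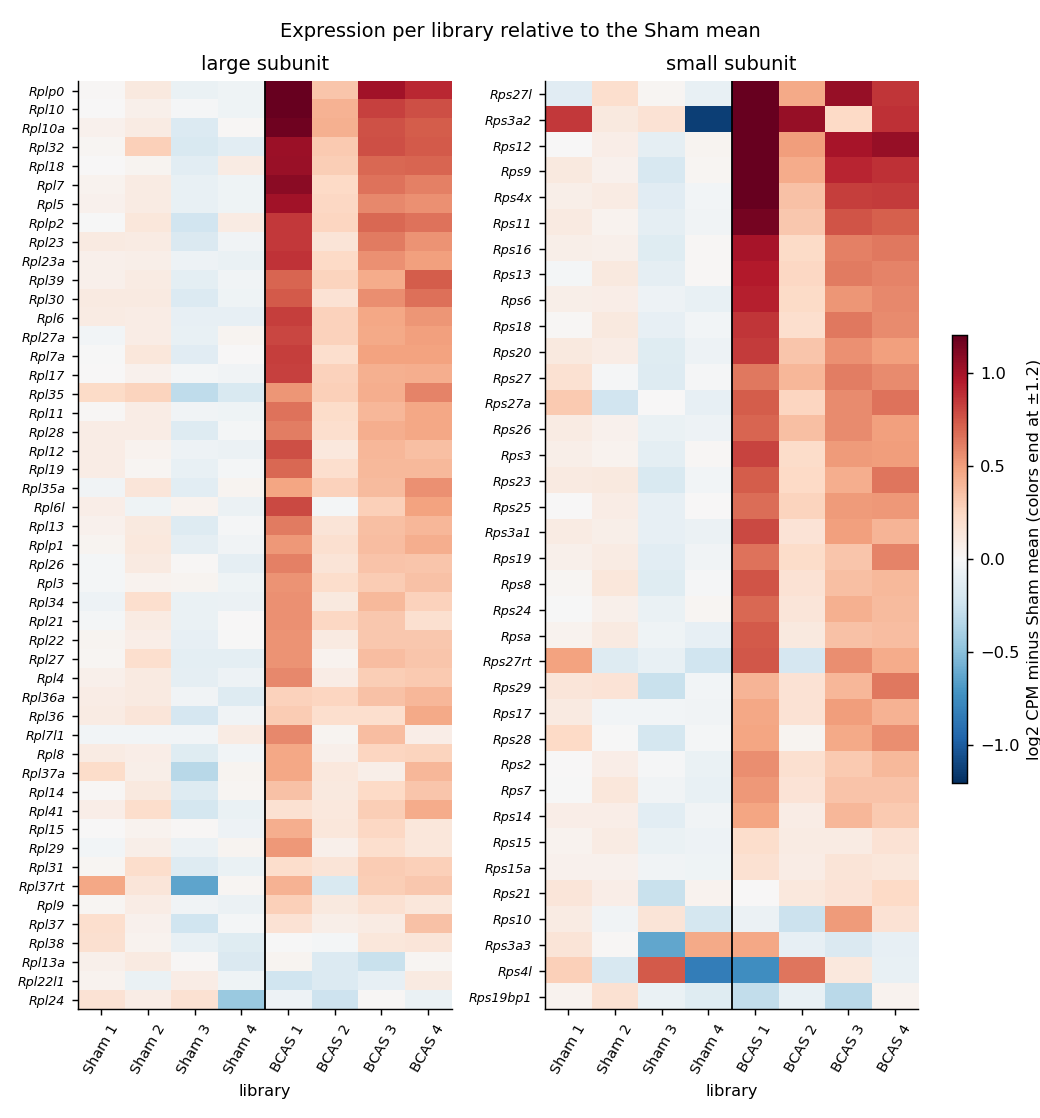
Level of each gene in each library as log2 CPM minus the mean of the 4 Sham libraries, from blue (lower) to red (higher), with large-subunit genes on the left, small-subunit genes on the right and rows in order of fold change (85 genes shown). The BCAS 1 column is the reddest for most genes and the BCAS 2 column the palest of the BCAS group, as their medians of 0.65 and 0.20 show.

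Genes of both subunits were higher in BCAS. Of the large-subunit genes, 32 of 50 were higher with a median log2 fold change of 0.39. Of the small-subunit genes, 27 of 37 were higher with a median of 0.48. Among all tested genes, 19.2% were higher. Among core genes alone, 32 of 46 large-subunit and 26 of 31 small-subunit genes were higher, with medians of 0.40 and 0.50. The small-subunit median was thus 0.09 above the large-subunit median on the log2 scale. For each library, log2 levels were taken relative to each gene's Sham mean, which puts the Sham libraries near 0 by construction. On this scale, the small-subunit median less the large-subunit median was 0.15, 0.04, 0.13 and 0.08 in BCAS 1 to 4. It was -0.01 to 0.02 in Sham, which says nothing about the levels of the subunits there. The ratio of large-subunit to small-subunit counts was 1.46 ± 0.0190 in Sham (SD, n = 4) and 1.43 ± 0.0142 in BCAS (SD, n = 4). These ratios overlapped, from 1.439 to 1.485 in Sham and from 1.414 to 1.444 in BCAS. Since the members were chosen with results in view, no p was computed for this difference. Per kilobase of exon, the median level of core genes in Sham was 53.2 CPM for the large and 53.2 CPM for the small subunit. Over the 87 genes the highest levels per kilobase in Sham were 481 CPM for Rplp1, 277 for Rps3a1, 246 for Rps15 and 230 for Rpl4. The lowest were 0.572 CPM for Rps3a2, 0.686 for Rpl24 and 1.40 for Rps10. The length used counts all annotated exon bases of a gene, for example 6270 in Rps15a and 383 in Rpl36. These ranks therefore depend on the annotation, and the part of length or of uncounted shared reads in them was not tested.

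Among the large-subunit genes, Rplp0 showed the largest difference. Rplp0 (chr5:115559467-115563727) encodes the base of the P stalk, which recruits the GTPases of translation. Its level was 191, 204, 178 and 182 CPM in Sham 1 to 4 and 583, 238, 378 and 354 CPM in BCAS 1 to 4. The groups did not overlap, and BCAS 1 was far above the other BCAS libraries. The log2 fold change was 1.04 ± 0.23 (SE), with an adjusted p of 0.0130. Over the alternative fits it ranged from 0.79, without BCAS 1, to 1.23, without BCAS 2. The partners of Rplp0 on the stalk, the acidic proteins P1 and P2, are encoded by Rplp1 and Rplp2. Rplp1 was at 245, 261, 222 and 232 CPM in Sham and 344, 274, 310 and 323 CPM in BCAS, with a log2 fold change of 0.38 ± 0.10 (SE) and an adjusted p of 0.0219. Rplp2 rose from 71.3 ± 7.85 to 110 ± 18.0 CPM (SD, n = 4), a log2 fold change of 0.62 ± 0.13 (SE) with an adjusted p of 0.0116. All 3 stalk genes were separated between the groups. The call of Rplp1 was lost without Sham 1, Sham 3, Sham 4, BCAS 3 or BCAS 4, with adjusted p-values between 0.00109 and 0.0683 over all alternative fits.

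Rpl10, an X-linked gene whose protein joins the large subunit late in its maturation, was at 173, 181, 172 and 167 CPM in Sham and 448, 232, 305 and 296 CPM in BCAS. Its log2 fold change was 0.89 ± 0.18 (SE, adjusted p = 0.00901). Rpl10a, a protein of the L1 stalk at the exit side for tRNA, had a log2 fold change of 0.79 ± 0.15 (SE, adjusted p = 0.00681). Of the 4 X-linked members, Rpl10, Rpl36a, Rpl39 and Rps4x, all 4 were higher, with a median log2 fold change of 0.70. This stands against 67.8% higher among all 87 genes and 19.2% among all tested genes, and a part for the X chromosome was not tested.

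Rpl5 and Rpl11 form a particle with 5S rRNA and, outside the ribosome, bind Mdm2, the inhibitor of p53. Rpl5 went from 191 ± 11.8 to 294 ± 65.8 CPM (SD, n = 4), with a log2 fold change of 0.62 (adjusted p = 0.0175). Rpl11 went from 92.6 ± 4.14 to 126 ± 15.8 CPM (SD, n = 4), with a log2 fold change of 0.44 (adjusted p = 0.0132). Rpl5 shares 26.7% of its exon bases with other genes, and 24.3% with Fam69a, whose own counts had a log2 fold change of -0.13 (adjusted p = 0.534). Rpl3, which lies at the peptidyl transferase center, had a smaller log2 fold change of 0.36 (adjusted p = 0.0281). Rpl4, part of the wall of the exit tunnel, had 461 ± 32.7 CPM in Sham (SD, n = 4). Its log2 fold change of 0.33 did not pass the test (adjusted p = 0.0668), and BCAS 2 at 491 CPM lay below Sham 2 at 496 CPM. Rpl4 was called with library size alone (0.0318), DESeq2 (0.0243) and without BCAS 2 (0.0129). Without Sham 4, the adjusted p of Rpl5 was 0.0550, within a range of 0.00124 to 0.0550 over its alternatives. Leaving out any of Sham 1 to 4, BCAS 3 or BCAS 4 ended the call of Rpl3, and so did using no filter beyond 1 count (0.0531), with adjusted p-values of up to 0.0845 in these fits.

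In the small subunit, Rps12 had the largest difference among core genes and the smallest p of the 87. Rps12 (chr10:23785183-23787275), whose protein sits on the head of the small subunit, was at 62.9, 66.5, 58.2 and 64.3 CPM in Sham and 157, 89.0, 125 and 130 CPM in BCAS. The log2 fold change was 0.99 ± 0.15 (SE), with an adjusted p of 0.00361. Rps9 (chr7:3703993-3706897), which lines the channel where mRNA enters, was at 147, 140, 118 and 138 CPM in Sham and 339, 185, 255 and 248 CPM in BCAS. Its log2 fold change was 0.92 ± 0.17 (SE, adjusted p = 0.00667). Neither gene had overlapping groups. Rps12 lies over other genes on 13.7% of its exon bases, 6.36% being under the small nucleolar RNA gene Snora33, and shares 56.4% of its 100-base windows with transcripts of other genes, whereas Rps9 shares 8.29%.

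Rps6, the substrate of the S6 kinases downstream of mTOR, had a log2 fold change of 0.59 (adjusted p = 0.0173), from 206 ± 12.5 to 309 ± 62.9 CPM (SD, n = 4). Rps3, which also takes part in DNA repair, had 0.52 (adjusted p = 0.0164). Rps19, the gene most often mutated in Diamond-Blackfan anemia, had 0.46 (adjusted p = 0.0180), and Rps14, whose loss underlies the anemia of the 5q- syndrome, had 0.33 (adjusted p = 0.0385). Rps27a, which is made as a fusion with ubiquitin, had 0.55 (adjusted p = 0.0208). Its groups overlapped, because Sham 1 at 114 CPM lay above BCAS 2 at 109 CPM. Rpsa, known also as the precursor of the laminin receptor, had 0.41 (adjusted p = 0.0463) and Rps3a1 had 0.48 (adjusted p = 0.0278). The calls of Rpsa, Rps14 and Rps3a1 were lost when any of Sham 1 to 4, BCAS 3 or BCAS 4 was left out, with adjusted p-values of up to 0.120, 0.0999 and 0.0779 over all alternative fits. That of Rpsa was also lost with upper-quartile scaling (0.0504), limma-voom (0.0514) and no filter beyond 1 count (0.0624), and that of Rps14 with no such filter (0.0704). The call of Rps27a was lost without Sham 2, Sham 4, BCAS 3 or BCAS 4, with values of up to 0.0639, that of Rps19 without Sham 4 or BCAS 4, with values of up to 0.0560, and that of Rps6 without Sham 4, at 0.0558. The levels of Rps15, a protein near the decoding site, differed little, with 155 ± 8.96 CPM in Sham and 172 ± 6.49 CPM in BCAS (SD, n = 4). Its groups did not overlap, but its log2 fold change of 0.15 did not pass the test (adjusted p = 0.158).

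Of the core genes that did not pass the test, those with the smallest log2 fold changes were Rpl24, Rpl13a and Rpl38 in the large and Rps10, Rps21 and Rps15a in the small subunit. Rpl38, which supports translation of Hox mRNAs in the mouse embryo, was at 26.1, 23.5, 21.4 and 20.6 CPM in Sham and 22.7, 22.5, 25.1 and 25.3 CPM in BCAS, and the groups overlapped fully. Its log2 fold change was 0.06 ± 0.10 (SE, adjusted p = 0.672). Rps21 had a log2 fold change of 0.13 ± 0.10 (SE, adjusted p = 0.356) with no bases shared with other genes, and Rps15a had 0.14 ± 0.07 (SE, adjusted p = 0.135).

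The values of Rpl24, Rps10 and Rpl13a were less certain. Rpl24 was at 0.796, 0.749, 0.801 and 0.483 CPM in Sham and 0.659, 0.567, 0.702 and 0.654 CPM in BCAS, or 8 to 15 counts per library. Per kilobase it was the lowest of the core genes. Its log2 fold change was -0.13 ± 0.28 (SE, adjusted p = 0.733). The annotation places Gm28037, listed at 0 counts in every library, on 47.0% of its exon bases, and 80.1% of its 100-base windows occur in transcripts of other genes. Rps10 had 3.24 ± 0.371 CPM in Sham and 3.51 ± 0.854 CPM in BCAS (SD, n = 4), and 28.7% of its exon bases lay under other genes, with 20.6% under RPS10-NUDT3, also at 0. The pseudogene Rps10-ps2 had 507 to 598 counts in Sham and 723 to 1257 counts in BCAS, with a log2 fold change of 0.52 (adjusted p = 0.0214), while Rps10 itself had 0.11 (adjusted p = 0.708). Rpl13a, a protein released in the interferon-gamma response of monocytes, had 17.7 ± 1.48 and 16.6 ± 1.69 CPM (SD, n = 4), and other genes lay on 35.4% of its exon bases, with Gm45713, at 0 counts, on 29.4%. Read pairs that fall on more than 1 gene were not counted under the recorded options. The share of each gene's counts lost this way was not tested.

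Overlap and sequence sharing were also compared over the whole group, beside 19.2% higher among all tested genes. Of the 59 genes with under 5% of their exon bases under another gene, 38 were higher, with a median log2 fold change of 0.40, and of the other 28 genes, 21 were higher, with a median of 0.47. Of the 6 genes with no 100-base window in common with another gene's transcripts, 4 were higher. The median gene shared 28.0% of its windows. Of the 42 genes with under 25% of their windows shared, 24 were higher (57.1%), with a median log2 fold change of 0.35, and of the 45 with 25% or more, 35 were higher (77.8%), with a median of 0.45. The part of shared sequence in these values was not tested.

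Some paralogs of ribosomal protein genes replace or accompany their parents in certain tissues. Differences between a paralog and its parent were not tested here. Rps27l (chr9:66946086-66949516), a target of p53, had 4.38, 5.55, 4.92 and 4.53 CPM in Sham and 15.8, 6.64, 10.1 and 8.83 CPM in BCAS, without overlap. This was the largest log2 fold change of the group, 1.10 ± 0.26 (SE, adjusted p = 0.0154), and without Sham 1 its adjusted p was 0.0509, within a range of 0.000722 to 0.0509 over its alternatives. The parent Rps27 had 36.2, 31.5, 28.6 and 31.6 CPM in Sham and 49.4, 41.9, 48.8 and 47.3 CPM in BCAS, a log2 fold change of 0.55 ± 0.10 (SE, adjusted p = 0.00540). The other paralog, Rps27rt, is a short gene with 89.5% of its windows shared, and it had a log2 fold change of 0.41 (adjusted p = 0.227).

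Rpl22, which was called higher with a log2 fold change of 0.33 (adjusted p = 0.0321), had 67.8 ± 3.53 CPM in Sham and 85.3 ± 10.3 CPM in BCAS (SD, n = 4). Its call was lost when any of Sham 1 to 4, BCAS 3 or BCAS 4 was left out and with no filter beyond 1 count (0.0563), with adjusted p-values of up to 0.0803. Its paralog Rpl22l1, whose splicing and level are under the control of the Rpl22 protein, had 22.4 to 25.2 CPM in Sham and ranged up to 25.4 CPM in BCAS, so that the groups overlapped, with means of 23.7 ± 1.33 and 22.2 ± 2.35 CPM (SD, n = 4). It had a log2 fold change of -0.10 ± 0.10 (SE, adjusted p = 0.481). Rps4x, the X-linked form of Rps4, went from 186 ± 13.6 to 337 ± 86.0 CPM (SD, n = 4), a log2 fold change of 0.85 (adjusted p = 0.00916). Its paralog Rps4l had 19.9, 14.2, 27.1 and 9.11 CPM in Sham and 9.67, 25.3, 17.8 and 15.3 CPM in BCAS. It was among the most variable members within each group, and its log2 fold change of -0.05 ± 0.36 (SE, adjusted p = 0.927) changed sign with the library left out. Rpl7 had a log2 fold change of 0.68 (adjusted p = 0.0162) and Rpl7l1 had 0.28 (adjusted p = 0.111). Rpl6 had 0.54 (adjusted p = 0.0155) and Rpl6l had 0.42 (adjusted p = 0.0971). Without Sham 4, the adjusted p was 0.0518 for Rpl7 and 0.0534 for Rpl6. Neither Rpl37 at 0.17 (adjusted p = 0.239) nor Rpl37rt at 0.18 (adjusted p = 0.593) passed the test. Rps3a2 and Rps3a3 were near the limit of the data at 0.453 ± 0.276 and 1.16 ± 0.366 CPM in Sham (SD, n = 4). Their log2 fold changes of 1.03 ± 0.51 and 0.01 ± 0.31 (SE) did not pass the test, with adjusted p-values of 0.143 and 0.990. Of the 9 paralogs, 1 was called higher, the protein-coding Rps27l, against 19.2% of all tested genes. Rps19bp1 had a log2 fold change of -0.16 (adjusted p = 0.357).

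**Figure D4:**
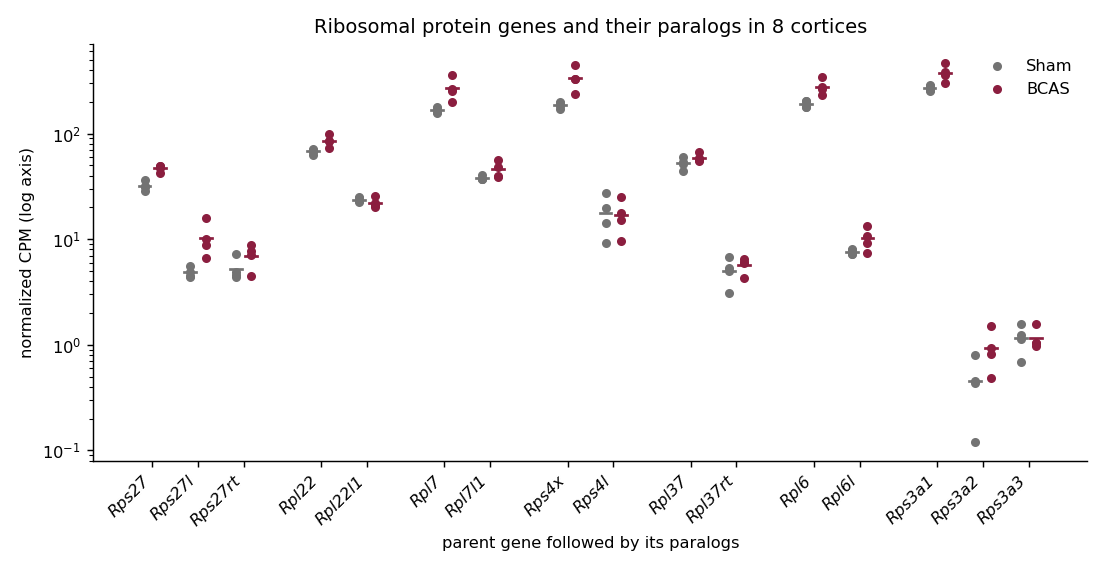
Normalized CPM (log axis) of parent genes and their paralogs, each parent followed by its paralogs, with 1 point per mouse (gray Sham, dark red BCAS) and a line at the group mean. Rps27l and its parent Rps27 are separated between the groups, whereas Rpl22l1 and Rps4l overlap beside separated parents.

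Fau and Rack1, which encode ribosomal proteins although their symbols fall outside the choice, were both higher. Fau, which encodes a ubiquitin-like protein fused to Rps30, went from 120 ± 12.5 to 211 ± 46.7 CPM (SD, n = 4), with a log2 fold change of 0.81 (adjusted p = 0.00897). Rack1, a scaffold on the head of the small subunit, went from 149 ± 8.99 to 267 ± 76.0 CPM (SD, n = 4), with a log2 fold change of 0.84 (adjusted p = 0.0122).

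Other lists from translation had medians closer to that of all tested genes, of which 19.2% were higher and 12.8% were lower. Of 15 elongation and termination factors, 4 were higher and 2 were lower, with a median log2 fold change of 0.11. Eef1a1, which delivers tRNA to the ribosome and is itself encoded by a TOP mRNA, was at 1941, 2104, 2073 and 1963 CPM in Sham and 5097, 2803, 3552 and 3636 CPM in BCAS. Its log2 fold change was 0.90 (adjusted p = 0.0116). Eef1a2, the form of neurons and muscle, was lower, from 1027 ± 83.3 to 604 ± 196 CPM (SD, n = 4), with a log2 fold change of -0.77 (adjusted p = 0.0338). The translocase Eef2, another TOP mRNA, had 0.22 (adjusted p = 0.259), whereas the TOP mRNA Tpt1 had 0.86 (adjusted p = 0.0125).

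Of 40 initiation factors, 5 were higher and 1 was lower, with a median of 0.02. Pabpc1, the poly(A)-binding protein and also a TOP mRNA, was the highest with a log2 fold change of 1.16 (adjusted p = 0.00686), going from 174 ± 6.48 to 388 ± 132 CPM (SD, n = 4). Eif4ebp1, an inhibitor of cap-dependent initiation that mTOR phosphorylates, had 1.04 (adjusted p = 0.0221), at 3.77 ± 0.994 and 7.77 ± 2.37 CPM (SD, n = 4).

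Of 40 ribosome biogenesis factors, 3 were higher and 2 were lower, with a median log2 fold change of -0.03, against 19.2% higher and 12.8% lower among all tested genes. The nucleolar protein Npm1 had 0.43 (adjusted p = 0.0167) and Rrp1b had 0.60 (adjusted p = 0.0481), while Bop1, of the complex that processes large-subunit rRNA, had -0.33 (adjusted p = 0.0362). Of 14 genes of RNA polymerase I, 2 were higher and 2 were lower, with a median of 0.14. Its cofactor Taf1d had 0.49 (adjusted p = 0.0167), and the initiation factor Rrn3 had -0.32 (adjusted p = 0.0200). Of 16 genes of growth signaling, 2 were higher and 4 were lower, with a median of -0.09. Myc, a transcription factor that drives ribosome production, was at 4.83, 4.24, 3.89 and 2.90 CPM in Sham and 14.7, 5.51, 11.5 and 8.99 CPM in BCAS, a log2 fold change of 1.36 (adjusted p = 0.0123). Rps6ka1, a kinase of the RSK family, had the largest change of that list, 1.85 (adjusted p = 0.00470). The lower genes included Mtor at -0.28 (adjusted p = 0.0397), its activator Rheb at -0.32 (adjusted p = 0.0236) and its inhibitor Deptor at -0.52 (adjusted p = 0.0281).

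The list of genes that receive the nascent chain had 12 members, of which 3 were higher and 2 were lower, with a median of -0.04. It held Nacc1, at -0.24 (adjusted p = 0.0413), which encodes a transcriptional regulator and does not act on nascent chains. Leaving Nacc1 out, a choice made after its value was seen, gave 3 higher and 1 lower of 11 genes, with a median of 0.0020. The lower one was Srp9, of the signal recognition particle, at -0.24 (adjusted p = 0.0296). The translocon subunits Sec61a1 and Sec61b had 0.69 (adjusted p = 0.0140) and 0.62 (adjusted p = 0.0310). The mitochondrial ribosome, a separate machine whose proteins are encoded in the nucleus, is given for comparison. Of 77 tested genes, 2 were higher and 9 were lower, against 19.2% and 12.8% of all tested genes. The median log2 fold change was -0.14, and Mrpl53 was at 0 in all libraries. Mrps27 had -0.48 (adjusted p = 0.0143) and Mrpl52, one of the pair that was higher, had 0.46 (adjusted p = 0.0260). The difference between the cytosolic and the mitochondrial genes was not tested.

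**Figure D5:**
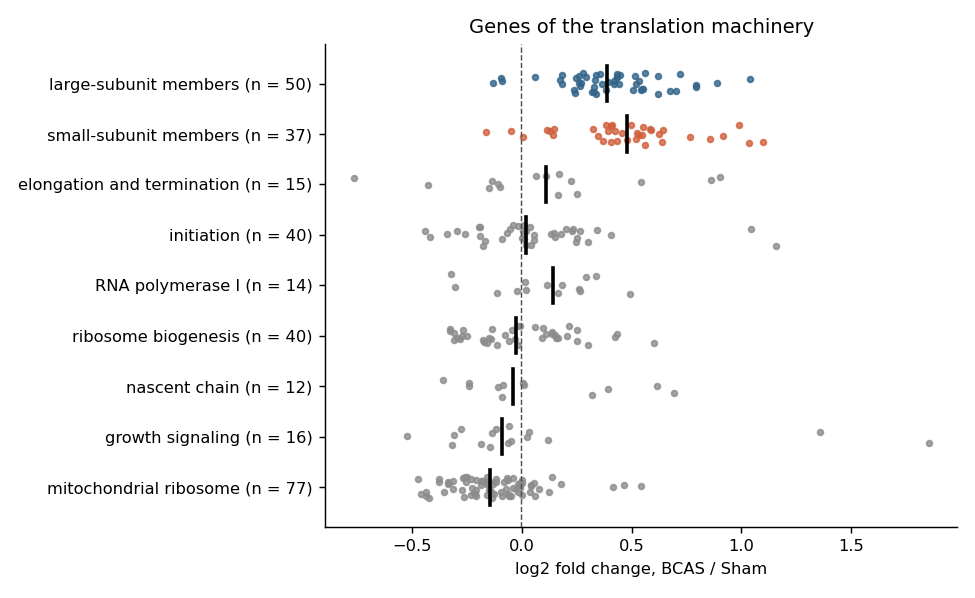
Log2 fold change of BCAS over Sham (x axis) for each tested gene of 9 lists, with 1 point per gene, a black bar at the list median and a dashed line at -0.01, the median of all tested genes. The large-subunit (blue) and small-subunit (orange) medians of 0.39 and 0.48 lie to the right of the medians of the 7 other lists, which range from -0.14 to 0.14.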

How the data were processed

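RNA-seq was performed on the right cerebral cortex of 8 mice. According to the methods and the submitters' processing notes, the authors used Trim Galore for trimming, HISAT2 for alignment to mm10, SAMtools 1.9 for sorting and featureCounts for counting read pairs on exons. They deposited raw counts per gene, 1 table per mouse. The table headers name featureCounts 2.0.1 with GENCODE vM20 and no option for strand, multi-mapped or multi-overlapping reads, whereas the notes name version 1.6.3 and the methods RefSeq genes. Unstranded counts cannot be split between overlapping genes on opposite strands, and close copies share reads.

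Symbols were joined by gene ID from GENCODE vM21 (same assembly), without the ID version, for 54723 of 54752 genes, 53861 of them with the same version. The vM20 symbols were not used here. The members and the lists were chosen with earlier results of these data known, so no test was made over a list. A further 3 genes, Rps3a2, Rps3a3 and Rpl6l, were classed as paralogs after the data were seen. Counts were tested with edgeR 4.0.16 in R 4.3.3 (filterByExpr, TMM, quasi-likelihood F-test, no covariate, Benjamini-Hochberg over the 17136 genes tested). SEs were derived from each log2 fold change and its quasi-likelihood F. The procedure was tested on simulated data. CPM floors of 0.138 to 0.179 correspond to 3 counts in a library and cover counting error only. Exon overlap was computed from the coordinates in the tables, and windows of 100 bases from GENCODE vM21 transcripts.

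Named genes were, per subunit, the 4 with the largest and the 4 with the smallest log2 fold change, the 4 highest and 3 lowest per kilobase in Sham, genes fixed by role, paralogs with their parents, Fau and Rack1, and up to 2 called genes per other list with Eef1a1, Eef1a2, Eef2 and Myc. Genes outside this rule, namely Rps21, Rps15a, Rpl21, Rpl36a, Rpl39, Bop1, Srp9, Nacc1, Mtor, Rheb, Deptor, overlapping genes and pseudogenes, were chosen after their values were seen. Values of some single genes that the rule covers are not reported here. Alternatives were 3 other scalings, 2 other filters, DESeq2 1.42.0, limma 3.58.1 (voom and trend), the replicate number as a block, each library left out, core genes only and genes with little exon overlap. Python 3.11.15, pandas 2.3.3, NumPy 2.4.6 and matplotlib 3.10.9 were used for summaries and figures.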

Additional observations from a re-analysis of the deposited data

Results flagged for a closer look

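A library was marked where its distance to the nearest other library of its group was large beside the range of that group (Dixon's test). This was tried in 84 groups of 4 libraries, for each of the named members and the shares, and 3 were marked. Chance marks about 1 in 20. Rpl24 was at 0.483 CPM in Sham 4, below 0.749 to 0.801 CPM in the other Sham libraries. Rpl7l1 was at 40.5 CPM in Sham 4, above 36.8 to 37.0 CPM in the others. Rps3a3 was at 1.58 CPM in BCAS 1, above 0.972 to 1.04 CPM in the others. None of the 3 genes passed the test between Sham and BCAS.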

How the results depend on the processing

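No member was called lower in any setting. The count of 59 members higher was 57 to 59 with RLE or upper-quartile scaling, limma-voom or limma-trend, 71 with library size alone, 49 without a filter beyond 1 count, 61 of 85 with at least 10 counts in every library and 67 with DESeq2. It was 58 among the 77 core genes and 38 among the 59 with under 5% of exon bases shared, where fewer genes were counted. Leaving out 1 library gave 28 to 71, and 27 members were called in all 8 of these fits. At the study's thresholds the count of 2 became 4 with library size alone, 1 with limma-voom, limma-trend or core genes only, and 0 to 6 when 1 library was left out. With the replicate number as a block, 39 members were higher and 1 passed the study's thresholds. Of the named members called without it, Rpl3, Rplp1, Rpl22, Rps14, Rps3a1 and Rpsa were not called. Same-numbered libraries did not deviate together (r between -0.10 and 0.001) and none correlated best with its own number. The sample labels give only the number, and these correlations cannot show whether such libraries shared a batch. The median log2 fold change stayed between 0.37 and 0.52 and the small-subunit less large-subunit difference between 0.07 and 0.13. Library size alone put the median of all genes at 0.08. The mean over Sham libraries of the ratio of the median core large-subunit to the median core small-subunit level was 1.02 per kilobase and 0.922 as CPM. Over the 17 alternative fits, 79 members had a positive log2 fold change throughout.

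Among named members, 4 that did not pass the test changed sign. Rps3a3 had a log2 fold change of -0.0078 with upper-quartile scaling, -0.0036 without a filter and between -0.19 (without Sham 3) and 0.18 (without Sham 4) when 1 library was left out, being below 0 also without Sham 2 and without BCAS 1. Rps4l had 0.030 with library size alone and between -0.30 (without BCAS 2) and 0.23 (without Sham 3) when 1 library was left out, being above 0 also without Sham 1 and without BCAS 1. Rpl37rt ranged from -0.0010 (without Sham 3) to 0.35 (without Sham 1), and Rps10 from -0.049 (without BCAS 3) to 0.23. Calls were gained by Rps15 with library size alone (0.0398), by Rpl6l (0.0169), Rpl7l1 (0.0300) and Rps27rt (0.0457) without BCAS 2, and by Rpl4 in 3 fits. The cause of these changes was not tested. Rpl24, Rps3a2 and Rps3a3 had the fewest counts, and the part of depth or of uncounted shared reads in this was not tested. With 4 mice a group, the p-values measure the spread between these mice.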

Other observations

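Pseudogene symbols of ribosomal proteins (-ps) numbered 289, of which 155 had any count. Their counts stood at 2.51 to 2.58 per 100 counts on the 87 genes in Sham and at 2.41 to 2.58 in BCAS, so the ranges overlapped. The most counted was Rps10-ps2, with 5976 counts over the 8 libraries. Rps12-ps3 had 246 to 318 counts in Sham and 417 to 937 in BCAS, a log2 fold change of 0.97 (adjusted p = 0.00884), close to the 0.99 of Rps12. Rpl21-ps15 had 0.49 (adjusted p = 0.0410), beside 0.34 for Rpl21. How reads are divided between a gene and its copies was not tested. Mitochondrial transcripts took 0.0662% to 0.0895% of the counts in Sham and 0.0585% to 0.0780% in BCAS.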
